A study of Rattus norvegicus with 6 samples.

Results

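The 10 genes described here encode the contractile apparatus of the heart muscle cells that line the pulmonary veins (PVs): Myl7, Myl4, Myh6, Mybpc3, Actc1, Tnnt2, Tnni3, Tnnc1, Actn2 and Ttn. They were taken by gene symbol from the deposited table, which lists 17833 genes, and all 10 were present. Bulk RNA-seq was performed on PVs of wild type Sprague-Dawley (SD) rats that underwent surgery at postnatal day 1, with 3 rats in the group with bilateral pulmonary vein banding (BPVB) and 3 in the sham group. The chest was opened in both groups and the veins were constricted only in the BPVB group. The veins that drain the right upper lobe were taken at postnatal day 21, and every library holds the RNA of the whole piece of tissue from 1 rat.

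A sleeve of atrial heart muscle extends from the left atrium along the PVs, and in rodents it reaches into the lung. Its cells contract through sarcomeres, in which thick filaments of myosin slide along thin filaments of actin. The troponin complex on the thin filament switches contraction on when calcium rises, the Z-disc anchors the thin filaments, and titin spans from the Z-disc to the middle of the sarcomere as a molecular spring. Of the 10 genes, Myl7 and Myl4 are the atrial forms of the myosin light chains, while the others serve atrial and ventricular muscle alike. A vein wall without heart muscle would contain little of them.

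In banded veins 8 of the 10 genes fell, Actn2 rose, and Mybpc3 did not pass the test. Ttn fell to 51.7% of its sham level, Tnni3 to 61.8% and Myl7 to 66.5%, whereas Actn2 rose to 122.1%. The summed level of the 10 genes was 17018 ± 251 FPKM (SD, n = 3) in the BPVB group and 23208 ± 263 in the sham group. FPKM is the number of sequenced fragments of a gene divided by gene length and by library size, and it is the unit in which the values were deposited. In the expression test used throughout (limma on log2(FPKM + 0.5), two-sided, with Benjamini-Hochberg adjustment at 0.05), 14.3% of the 15150 genes tested were called lower in the BPVB group and 17.2% higher. Strongly expressed genes were called more often: of 733 genes with a mean of at least 100 FPKM, 40.1% were called lower and 31.4% higher. Of the 10 genes, 9 belong to that class, all but Ttn, and 7 of these 9 were called lower. The median log2 fold change was -0.36 over the 10 genes and 0.025 over all genes tested.

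The libraries held between 23439506 and 29725808 fragments, and each of the 10 genes was covered by 23795 to 233197 of them per library, with a coefficient of variation between rats of 0.48% to 5.2%. Other heart muscle markers were read for the kind of muscle in the tissue, which does not tell the sleeve from the atrium itself. The atrial genes Nppa, encoding atrial natriuretic peptide, and Sln, encoding sarcolipin, were at 535 to 654 and 938 to 1017 FPKM over the 6 libraries. The ventricular light chain Myl2 was between 8.03 and 12.7 FPKM, beside 5217 to 8217 FPKM of Myl7. Bmp10, another atrial gene on the list, is not in the table and was not analysed here. In bulk tissue, fewer heart muscle cells in the sample and less RNA per cell cannot be told apart.

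The promoter sequences of 5 genes are shown because these genes mark the range of the response: Ttn and Tnni3 had the deepest falls, Actn2 was the one member that rose, and Actc1 and its skeletal counterpart Acta1 moved in opposite directions. Each run holds the 250 bases before the annotated start, from RefSeq on the GRCr8 assembly, read from 5′ to 3′ in the direction of the gene. The sources used here do not give the build to which the reads were mapped. Capitals mark matches on either strand to a GATA site, an MCAT site, a TATA box, a CArG box or a MEF2 site.
Ttn (chr3:82332111-82332360, minus strand): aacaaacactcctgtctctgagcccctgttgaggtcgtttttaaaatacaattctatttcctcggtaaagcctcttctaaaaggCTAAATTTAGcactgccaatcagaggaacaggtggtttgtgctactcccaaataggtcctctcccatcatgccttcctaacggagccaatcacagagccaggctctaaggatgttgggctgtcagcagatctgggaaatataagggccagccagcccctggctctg
Tnni3 (chr1:78342321-78342570, plus strand): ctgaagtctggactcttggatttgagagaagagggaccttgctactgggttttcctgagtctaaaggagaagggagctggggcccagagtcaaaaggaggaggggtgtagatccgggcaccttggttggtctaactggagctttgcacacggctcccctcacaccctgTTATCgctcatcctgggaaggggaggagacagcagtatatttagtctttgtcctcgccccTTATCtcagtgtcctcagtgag
Actn2 (chr17:62834805-62835054, plus strand): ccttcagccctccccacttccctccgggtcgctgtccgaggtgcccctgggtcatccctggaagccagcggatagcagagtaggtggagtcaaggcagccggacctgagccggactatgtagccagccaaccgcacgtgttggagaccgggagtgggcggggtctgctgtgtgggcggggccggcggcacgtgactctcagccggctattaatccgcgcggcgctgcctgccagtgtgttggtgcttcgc
Actc1 (chr3:121271828-121272077, minus strand): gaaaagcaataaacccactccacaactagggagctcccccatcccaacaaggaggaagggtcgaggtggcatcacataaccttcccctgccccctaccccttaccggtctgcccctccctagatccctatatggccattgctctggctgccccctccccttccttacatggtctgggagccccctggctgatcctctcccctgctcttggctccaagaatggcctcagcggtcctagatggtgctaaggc
Acta1 (chr19:68784195-68784444, minus strand): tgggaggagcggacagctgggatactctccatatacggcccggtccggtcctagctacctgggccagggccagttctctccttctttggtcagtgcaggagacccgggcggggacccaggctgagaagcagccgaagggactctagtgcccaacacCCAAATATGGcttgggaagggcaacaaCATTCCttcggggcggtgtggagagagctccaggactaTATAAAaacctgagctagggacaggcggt

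Windows of 300 bases, with 50 bases after the start added, were found for 9 of the 10 genes, with 2 windows for Tnnt2 and thus 10 in all. Tnnc1 was not matched. A MEF2 site was found in 2 of the 10 windows, those of Ttn and Mybpc3, beside 3.29% of all 33469 windows. A CArG box was found in 1, that of Actc1, where it began 3 bases into the transcript, beside 1.64% of all windows. Acta1 had its CArG box 94 bases before the start. A GATA site, with the letters GATAA, was found in 3 windows (26.5% of all windows), and Tnni3 had it at 82 and 22 bases before the start. MCAT sites, with the letters CATTCC, were found in 3 windows, those of Myh6, Tnnt2 and Ttn, beside 14.2% of all windows. A TATA box, spelled TATAAA, was found in 1, that of Myl4, also beside 14.2% of all windows. An NKE site (AAGTG) was found in 3 windows (46.2% of all) and an E-box (CANNTG) in 8 (72.1% of all); an E-box of the letters CAAGTG also holds an NKE site. These matches describe letters in a window and not bound sites.

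**Figure D1:**
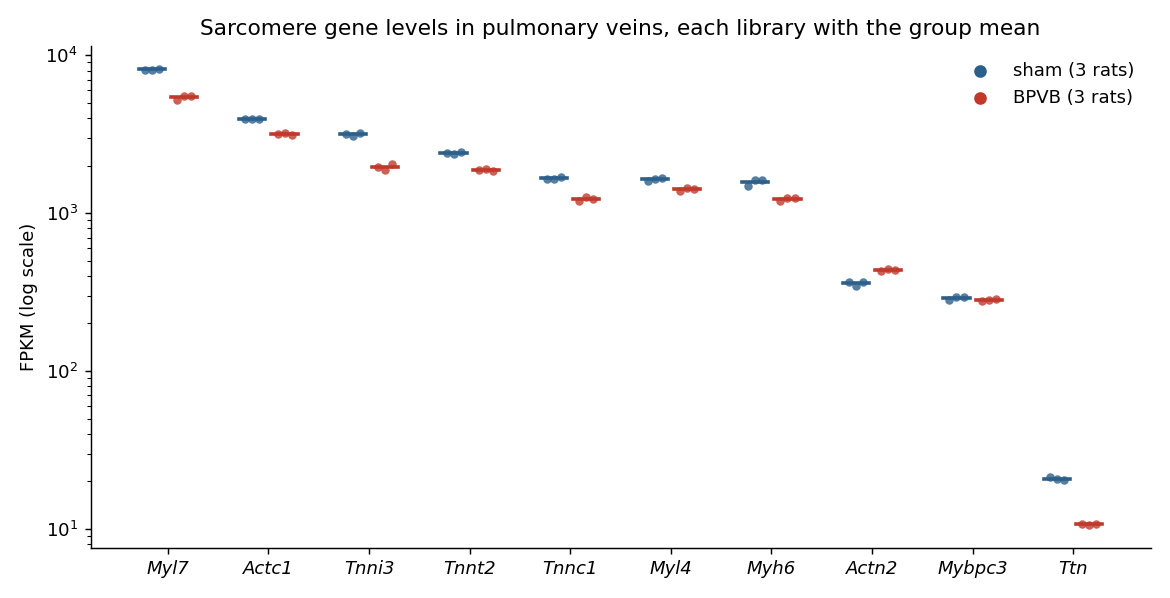
Level of the 10 sarcomere genes in FPKM on a log axis, with 1 point per library and a bar at the group mean (blue sham, red BPVB, 3 rats each). The 3 BPVB points lie below the 3 sham points for 8 genes, above them for Actn2, and overlap with them for Mybpc3.

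The thick filament was represented by the motor and its partners. Myh6 encodes the alpha myosin heavy chain, the fast motor of the heart. Its levels were 1190, 1239 and 1254 FPKM in the BPVB group and 1477, 1623 and 1618 in the sham group. All 3 banded veins lay below all 3 sham veins, and the log2 fold change was -0.36 (SE 0.038; limma adjusted p = 1.5e-04). The gene lies next to the closely similar Myh7, so fragments shared by both could have been split between them.

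Myl7, the atrial regulatory light chain, was the most abundant of the 10 in both groups. It measured 5217, 5493 and 5515 FPKM in the BPVB group against 8093, 8084 and 8217 in the sham group. The groups were far apart, and the log2 fold change was -0.59 (SE 0.024; limma adjusted p = 4.8e-07). This call was lost under quantile normalization, with a log2 fold change of -0.15 (limma adjusted p = 0.31). That scaling gives each rank the same value in every library, and Myl7 held rank 2 in all libraries but 1, where it held rank 3.

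Myl4, the atrial essential light chain, changed less. It measured 1385, 1436 and 1430 FPKM in the BPVB group and 1605, 1645 and 1663 in the sham group, again with no overlap. The log2 fold change was -0.21 (SE 0.023; limma adjusted p = 1.8e-04), and -0.06 under quantile normalization (limma adjusted p = 0.041). Myl7 was present at 4.97 ± 0.068 times the level of Myl4 in the sham group and at 3.82 ± 0.046 times in the BPVB group (SD, n = 3).

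Mybpc3, the cardiac myosin-binding protein C that braces the myosin heads, measured 276, 283 and 284 FPKM in the BPVB group and 281, 296 and 294 in the sham group. The groups overlapped. The log2 fold change was -0.05 (limma 95% confidence interval -0.11 to 0.02, adjusted p = 0.26), so a fall as deep as that of the other thick filament genes lies outside the interval. Over the alternative settings its log2 fold change ran from -0.07 to 0.01 and its limma adjusted p from 0.028 to 0.75.

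The thin filament genes all fell. Actc1, the cardiac alpha actin, measured 3180, 3200 and 3134 FPKM in the BPVB group and 3955, 3927 and 3963 in the sham group. The replicates were tight and the groups did not overlap (log2 fold change -0.32, SE 0.018; limma adjusted p = 2.7e-06). The coding sequences of the muscle actins Actc1, Acta1, Acta2 and Actg2 are nearly identical, so the assignment of fragments among them is uncertain.

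The 3 cardiac troponin genes fell by different amounts. Tnnt2 encodes troponin T, which ties the complex to tropomyosin. Its levels were 1885, 1897 and 1837 FPKM in the BPVB group and 2420, 2382 and 2434 in the sham group, a log2 fold change of -0.36 (SE 0.021; limma adjusted p = 2.9e-06). Tnnc1, the calcium sensor troponin C that the heart shares with slow skeletal muscle, measured 1192, 1271 and 1228 FPKM in the BPVB group and 1638, 1650 and 1703 in the sham group, a log2 fold change of -0.44 (SE 0.028; limma adjusted p = 6.2e-06). Tnni3, the inhibitory subunit troponin I, measured 1959, 1875 and 2049 FPKM in the BPVB group and 3182, 3102 and 3235 in the sham group. For all 3 subunits every banded vein lay below every sham vein, and Tnni3 had the deepest fall, with a log2 fold change of -0.69 (SE 0.032; limma adjusted p = 9.9e-07). Tnni3 exceeded Tnnt2 by a factor of 1.32 ± 0.013 in the sham group, and the ratio was 1.05 ± 0.064 in the BPVB group, where the values of both genes overlapped.

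Ttn, encoding the giant spring protein titin, measured 10.8, 10.6 and 10.7 FPKM in the BPVB group and 21.2, 20.6 and 20.3 in the sham group. The banded veins thus held about as much as each other and all lay far below the sham veins. The log2 fold change was -0.92 (SE 0.050; limma adjusted p = 2.4e-06), the deepest of the 10. With 106374 bases, worked back from the FPKM, Ttn is the longest gene in the table, and its low FPKM is a level per length that rests on 29446 to 53570 fragments per library. The 848 genes of 10000 bases or more had a median log2 fold change of 0.020, with 96 called lower and 96 higher, and Ttn ranked 7 from the lowest among them. The 90 genes of 20000 bases or more had a median of -0.019, with 9 called lower and 4 higher. Other long muscle genes had log2 fold changes in both directions, with -0.26 for the sodium-calcium exchanger Slc8a1, 0.38 for the calcium release channel Ryr2 and 1.38 for Xirp2. The table gives 1 value per gene, so the splice forms of Ttn and Tnnt2 were not analysed here.

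Actn2, the sarcomeric alpha-actinin that crosslinks actin at the Z-disc, measured 433, 445 and 434 FPKM in the BPVB group and 365, 345 and 365 in the sham group. All 3 banded veins lay above all 3 sham veins. The log2 fold change was 0.29 (SE 0.029; limma adjusted p = 9.6e-05), the only rise among the 10. Relative to Ttn, Actn2 stood at 17.3 ± 0.63 in the sham group and at 40.8 ± 0.99 in the BPVB group, in FPKM per FPKM (SD, n = 3).

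**Figure D2:**
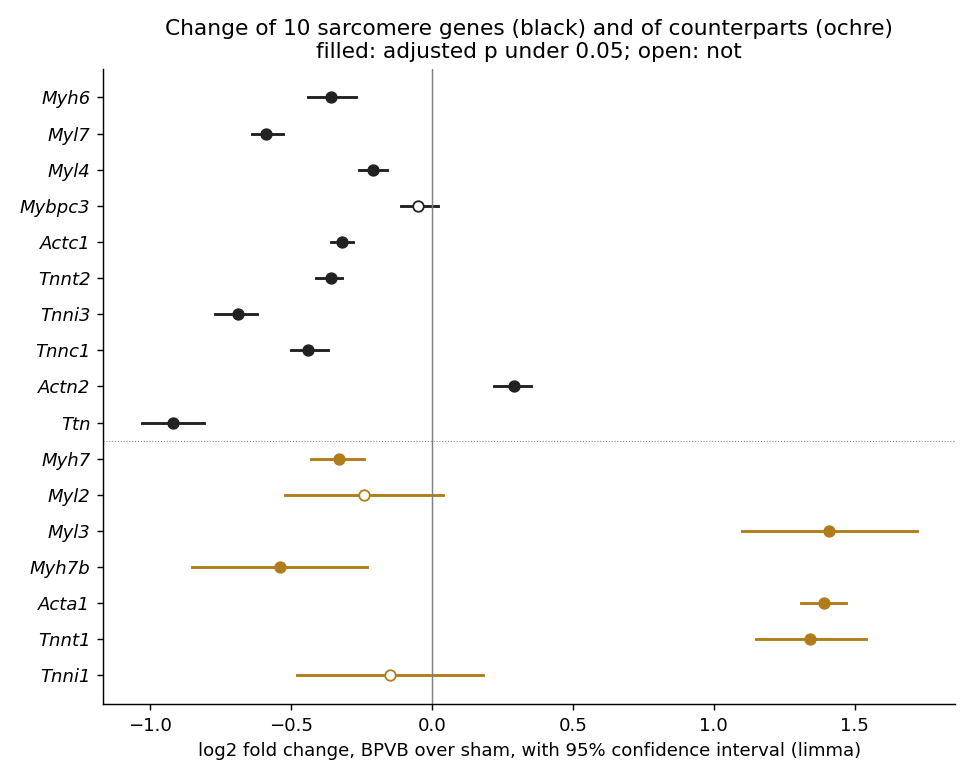
Log2 fold change of the BPVB over the sham group with its 95% confidence interval from limma, for the 10 sarcomere genes (black) and for 7 ventricular or skeletal counterparts (ochre); filled points passed the adjusted p of 0.05. Of the 10 genes, Ttn lies furthest left at -0.92 and only Actn2 lies right of 0 with a filled point.

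By groups that did not overlap, 8 of the 10 genes were lower (20.5% of all genes tested) and 1 was higher (25.2%). None of the 10 passed the stricter criterion that adds an absolute log2 fold change above 1, which 3.27% of all genes tested met in either direction. By limma and by limma-voom on the recovered fragments alike, 0 of the 10 passed that criterion, also at an unadjusted p under 0.05, and the lowest log2 fold changes were -0.92 and -0.95. Leaving out any of the 6 libraries changed no call among the 10.

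The summed level was 73.3% of sham, a log2 ratio of -0.45. The 3 BPVB libraries lay between 16728 and 17176 FPKM and the 3 sham libraries between 23038 and 23511. The exact permutation test gave p = 0.1, which is the smallest that 3 against 3 libraries allow. As a share of the sequenced fragments, the 10 genes took 2.86% ± 0.042 in the BPVB group and 3.80% ± 0.058 in the sham group. Under quantile normalization the log2 ratio of the sum was -0.26.

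The order of the levels per length was Myl7, Actc1, Tnni3, Tnnt2, Tnnc1, Myl4, Myh6, Actn2, Mybpc3 and Ttn in the sham group. The libraries of Tnnc1 and Myl4 overlapped, as did those of Myl4 and Myh6, and all other neighbours were apart. In the BPVB group Tnni3 and Tnnt2 overlapped, Myl4 stood above Tnnc1 and Myh6, and the last 2 overlapped.

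Set against the mean log2 level of the 10 genes in the same library, the genes did not keep their proportions. A change of the library total leaves this measure nearly the same. Quantile normalization, applied to this measure after seeing the data, turned the direction for Myl7 (0.11) and Actc1 (-0.13). It did so for none of the other 6 genes whose groups did not overlap. Relative levels in the BPVB group were lower for Ttn (-0.56 on the log2 scale), Tnni3 (-0.33), Myl7 (-0.22) and Tnnc1 (-0.07). They were higher for Actn2 (0.65), Mybpc3 (0.32), Myl4 (0.16) and Actc1 (0.05). The groups did not overlap for any of these 8 genes, each with an exact permutation p = 0.1, or 0.125 after adjustment over the 10 comparisons. Myh6 and Tnnt2 moved with the mean, with differences of 0.01 and 0.00 and overlapping groups (exact permutation p = 0.9 and 1).

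**Figure D3:**
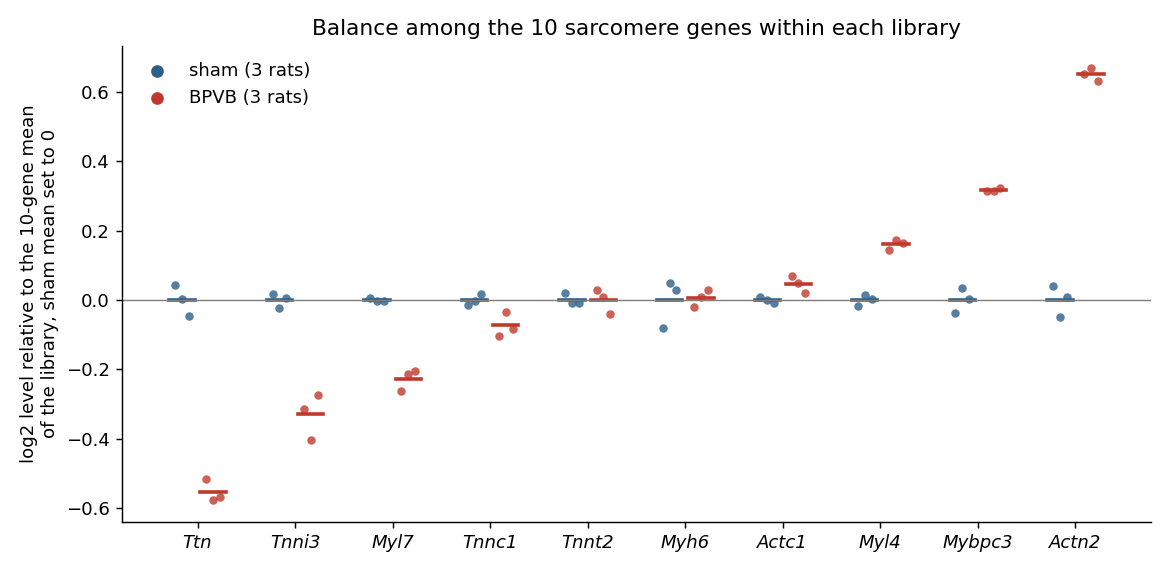
Log2 level of each of the 10 genes relative to the mean of all 10 in the same library, with the sham mean set to 0 (blue sham, red BPVB, bars are group means). Ttn, Tnni3 and Myl7 lie lowest in the banded veins at -0.56, -0.33 and -0.22, though Myl7 stood at 0.11 under quantile normalization, and Actn2 lies highest at 0.65.

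Several of the 10 genes have a counterpart that takes the same place in ventricular, slow or skeletal muscle, and these did not move as 1 group. Myh7, the slow beta myosin heavy chain, measured 40.3, 37.1 and 38.6 FPKM in the BPVB group and 48.1, 49.7 and 48.6 in the sham group, with no overlap (log2 fold change -0.33, SE 0.042; limma adjusted p = 3.7e-04). The share of Myh6 in the sum of Myh6 and Myh7 was 96.9% ± 0.19 in the BPVB group and 97.0% ± 0.12 in the sham group, with overlapping values. Myl2, the ventricular regulatory light chain, had overlapping groups (log2 fold change -0.24, limma 95% confidence interval -0.52 to 0.04). Myl7 made up 99.8% of Myl7 plus Myl2 in the BPVB group and 99.9% in the sham group.

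Myl3, the ventricular and slow essential light chain, rose while its atrial counterpart Myl4 fell. It measured 29.4, 27.4 and 21.9 FPKM in the BPVB group and 8.74, 11.6 and 8.42 in the sham group, all banded veins above all sham veins (log2 fold change 1.41, SE 0.135; limma adjusted p = 7.7e-05). The share of Myl4 in the sum of both was 98.2% ± 0.29 in the BPVB group and 99.4% ± 0.1 in the sham group. Acta1, the skeletal alpha actin, which is also made in fetal and loaded hearts, measured 146, 154 and 143 FPKM in the BPVB group and 57.1, 55.7 and 55.3 in the sham group. The log2 fold change of Acta1 was 1.39 (SE 0.035; limma adjusted p = 2.9e-08), opposite to that of Actc1. Actc1 made up 95.6% ± 0.11 of the 2 actins in the BPVB group and 98.6% ± 0.023 in the sham group. Both actins together stood at 3319 ± 38 FPKM in the BPVB group and 4005 ± 19 in the sham group, and the groups did not overlap.

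Tnnt1, the slow skeletal troponin T, which is a neighbour of Tnni3 in the genome, measured 10, 11.7 and 10.1 FPKM in the BPVB group and 3.7, 4.07 and 3.82 in the sham group, with no overlap (log2 fold change 1.34, SE 0.086; limma adjusted p = 6.0e-06). Tnni1, the slow skeletal and fetal troponin I, had overlapping groups between 1.96 and 3.09 FPKM, and Tnni3 made up 99.9% of Tnni3 plus Tnni1 in both groups. Over the 5 shares, the exact permutation p was 0.1 for the Myl4 and Actc1 shares, 0.2 for the Myl7 and Tnni3 shares and 0.7 for the Myh6 share, and the adjusted values were 0.25 for the first 4 shares. Myh7b, a slow myosin of low level, measured 1.36, 1.77 and 1.21 FPKM in the BPVB group and 2.13, 2.47 and 2.34 in the sham group (log2 fold change -0.54; limma adjusted p = 0.016), and it lost its call without BPVB replicate 3 (-0.45) or sham replicate 2 (-0.50).

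Skeletal muscle itself was scarcely present. Of 17 skeletal sarcomere genes listed, 13 were tested. Of these, 3 rose (Acta1, Tnnt1 and Mybpc2), 1 fell (Myh8) and 9 were not called. Myh8 was at 0.223 to 0.586 FPKM and lost its call whichever library was left out, and Mybpc2 was at 0.362 to 1.38 FPKM and lost its call without each of 4 libraries in turn. The fast myosin Myh1, the embryonic myosin Myh3 and the fast alpha-actinin Actn3 were below the filter of a mean of 0.1 FPKM, and Myh4 is not in the table.

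**Figure D4:**
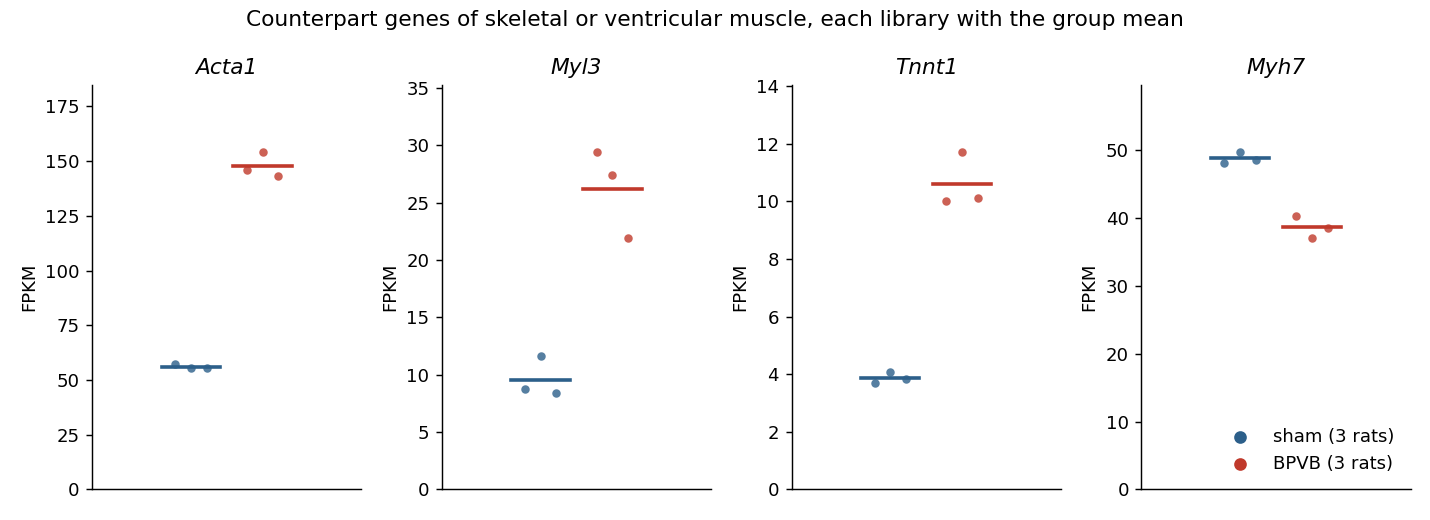
FPKM of the counterpart genes Acta1, Myl3, Tnnt1 and Myh7 on linear axes from 0, with 1 point per library and a bar at the group mean (blue sham, red BPVB). Acta1, Myl3 and Tnnt1 lie higher in all 3 banded veins than in any sham vein, and Myh7 lies lower.

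The other parts of the sarcomere were described by lists that include none of the 10 genes. Over all genes tested 17.2% were called higher and 14.3% lower, and from a mean of 100 FPKM upward 31.4% and 40.1%. Of 5 thin filament accessory genes, 2 fell, 1 rose and 2 were not called. Tpm1, the tropomyosin that lies along cardiac actin, fell with the troponins (log2 fold change -0.53, SE 0.021; limma adjusted p = 4.8e-07), as did Lmod2, which builds thin filaments to length (-0.27). Nrap, a scaffold of the nascent myofibril, rose (0.88).

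Among 16 genes of the Z-disc and the desmin network, 11 rose, 3 fell and 2 were not called. Their median log2 fold change was 0.33, and 17.2% of all genes tested were called higher. Actn2 thus went the way of most of these 16 genes, a list chosen with earlier results of these data known. Ankrd1, a stretch-responsive partner of titin and nuclear cofactor, measured 2204, 2238 and 2200 FPKM in the BPVB group and 965, 970 and 973 in the sham group (log2 fold change 1.19, SE 0.019; limma adjusted p = 1.4e-09). Xirp2 (1.38) and Xirp1 (1.33), actin-binding proteins of sites under strain, rose by similar amounts on the log2 scale. Ankrd2, a relative of Ankrd1 in slow skeletal muscle, was at 10.9, 7.94 and 9.28 FPKM in the BPVB group and at 0.0754, 0.0382 and 0.376 in the sham group, where the smallest value rested on 1 fragment. The members that fell were Tcap, which caps titin at the Z-disc (-0.79), Ldb3 (-0.42) and Nexn (-0.41).

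Of 6 M-band genes, which crosslink the thick filaments, Myom2 (0.56) and the kinase-like Alpk3 (0.57) rose, Myom1 fell (-0.17), and 3 were not called. Of 8 genes of sarcomere assembly and turnover, 4 rose and 2 fell. The chaperone Hspb7 (0.70), the cardiac myosin light chain kinase Mylk3 (0.56) and the ubiquitin ligase Trim54 (0.31) rose, while Smyd1 (-0.28) and the myosin chaperone Unc45b (-0.20) fell.

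The energy supply of muscle fell as a whole list. All 9 genes tested were called lower (median log2 fold change -0.57), and Cox7a1 is not in the table. All 9 had a mean of at least 100 FPKM, the class in which 40.1% of genes were called lower. Ckmt2, the mitochondrial creatine kinase of striated muscle, measured 324, 314 and 319 FPKM in the BPVB group and 819, 835 and 848 in the sham group (log2 fold change -1.39, SE 0.024; limma adjusted p = 2.2e-09). The glycolytic Pgam2 (-1.08) and the cytosolic creatine kinase Ckm (-0.85) followed. Ckmt2 and Pgam2 fell further on the log2 scale than any of the 10 sarcomere genes.

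Of 9 calcium handling genes, 4 fell, 2 rose and 3 were not called. Hrc, a calcium-binding protein of the sarcoplasmic reticulum, fell most (-0.87), followed by Trdn (-0.44) and the calcium pump Atp2a2 (-0.36). The calcium release channel Ryr2 (0.38) and the pump inhibitor Pln (0.27) rose. Of 4 other atrial genes tested, Nppa rose (0.23) and 3 fell. Kcna5, an atrial potassium channel, fell to 44.5% of sham (-1.12) and Mybphl had a log2 fold change of -0.15. Mybphl lost its call under quantile normalization (-0.05), and Sln (-0.08) lost its call under TPM scaling and without each of 3 libraries in turn.

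Among genes of the intercalated disc, which couples neighbouring heart muscle cells, N-cadherin Cdh2 (0.46) and Pkp2 (0.33) rose. Dsg2, a desmosomal cadherin, was called lower (-0.30) but lost its call without BPVB replicate 1 or 3 or sham replicate 1. Of 10 cardiac transcription factors, 6 rose, led by Tbx20 (1.15), Gata4 (0.52) and Tbx5 (0.52), and Mef2c fell (-0.23). These lists were chosen with earlier results of the same data known and are descriptions.

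**Figure D5:**
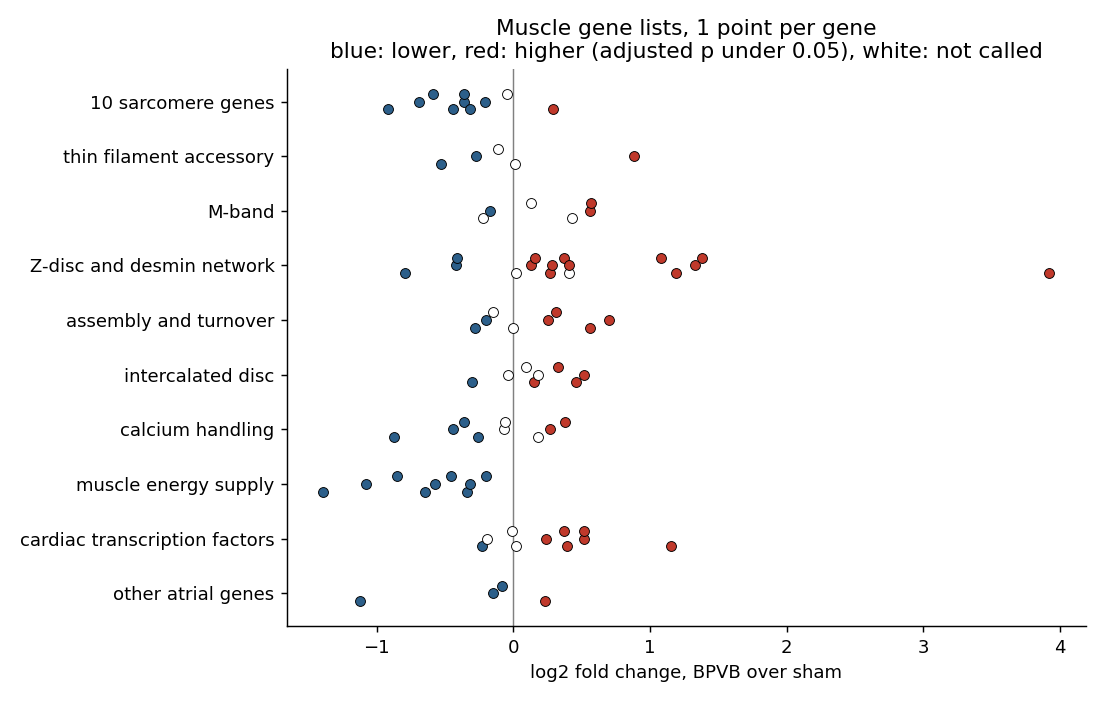
Log2 fold change of the BPVB over the sham group for the genes of 10 muscle gene lists, with 1 point per gene (blue called lower, red called higher, white not called, at an adjusted p of 0.05). The 10 sarcomere genes and the 9 energy supply genes lie mostly or all to the left of 0, and 11 of 16 Z-disc and desmin network genes lie to the right as red points.

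Markers of other cells differed between the groups too, in both directions. Over all genes tested, 17.2% were called higher and 14.3% lower. All 6 alveolar epithelial markers rose, and their summed level was 567 to 621 FPKM in the BPVB group and 60.1 to 63.2 in the sham group, with Sftpc at 367 to 409 and 35 to 37.6 FPKM. All 6 macrophage markers rose, with sums of 652 to 675 and 209 to 215 FPKM. Of 6 fibroblast markers 4 rose and 2 fell, with sums of 6167 to 6221 and 5394 to 5438 FPKM. Of 9 smooth muscle genes 5 fell and 2 rose, with sums of 4970 to 5033 and 5487 to 5531 FPKM, and of 6 endothelial markers 4 fell, with sums of 952 to 969 and 1081 to 1090 FPKM. From its single-cell data, the paper left out epithelial cells, which it regarded as likely lung tissue and not vein. None of these cell type markers was at 0 in any library. Their part in the change of the sarcomere genes was not tested.

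The 10 genes nearest to the mean profile of the sarcomere genes were sought over the 6 libraries among 12147 genes with a mean of at least 1 FPKM, by the Euclidean distance of centred log2(FPKM + 0.5). With distances of 0.023 to 0.047, they were Abca8a, Atp5f1b, Ackr3, Ptprb, Atp2a2, Dmpk, Hypk, Pfdn2, Atp5f1a and Tpi1. Among them Atp5f1b and Atp5f1a encode the catalytic core of the mitochondrial ATP synthase, Atp2a2 the calcium pump, Dmpk a muscle kinase and Tpi1 a glycolytic enzyme, whereas Ptprb is a phosphatase of endothelial cells. Atp5f1b measured 1956, 1977 and 1958 FPKM in the BPVB group and 2548, 2534 and 2594 in the sham group. Likeness of this kind rests mainly on the difference between the groups, which every gene with a fall of this size shares.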

How the data were processed

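PV RNA of 3 BPVB and 3 sham rats was sequenced as 150 bp paired-end reads. The study's methods name fastp, HISAT, HTSeq-count and a VAHTS Universal V6 kit, whereas the authors' own notes to GEO list HISAT2 2.0.5, StringTie 1.3.3b, featureCounts 1.5.0-p3 and DESeq2 1.20.0, and the labels name a NEBNext Ultra kit. The genome build, annotation and strand setting are not given in the sources used here. The authors deposited 1 FPKM value per gene and library, and library names were matched to the sample labels. DESeq2 was not run here.

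Fragments behind the FPKM were recovered from whole-number ratios between libraries, whole within 0.01 for 100.0% of genes. On a simulated table, all counts were right for 98.6% of 2195 genes with at least 50 fragments in some library. Intervals and p-values cover the spread between these rats. Groups were compared with limma 3.58.1 in R 4.3.3 (eBayes with a trend) on log2(FPKM + 0.5), leaving out genes under a mean FPKM of 0.1. A fold change on this scale understates the change of low genes, by a wide margin near or below 0.5 FPKM. Tested on simulated data with 15167 genes, the procedure called 200 of 200 genes changed 4-fold and 191 of 200 (95.5%) changed 1.5-fold, with 26 false calls in all. The changed genes all had a mean of at least 1 FPKM, with equal numbers raised and lowered. The simulated spread between rats was set alike for all genes, and recovery of lower genes was not tested. Sums and shares were compared by two-sided exact permutation tests. Named were all 10 genes, their ventricular counterparts, up to 3 called genes per list and direction, and the nearest profiles; Slc8a1, Ankrd1 and Fabp4 were named after their values were seen. The alternatives were pseudocounts of 1 and 0.1, 2 other filters, 3 other scalings, a replicate block, robust eBayes, limma-voom on the recovered fragments, the fold threshold, and leaving out each library. The 10 genes and all lists were chosen with earlier results of these data known. Python 3.11.15 was used for the other steps. Some genes of the lists are not reported here.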

Additional observations from a re-analysis of the deposited data

How the results depend on the processing

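Of the 160 log2 fold changes of the 10 sarcomere genes under 16 alternatives, 157 kept their direction and their side of the adjusted p of 0.05. The exceptions were Myl7 under quantile normalization (-0.15, no longer called), Mybpc3 under quantile normalization (0.01, against -0.05, not called in either) and Mybpc3 under limma-voom (-0.04, then called). Over 96 named genes, 1503 of 1530 values did so. Adding an absolute log2 fold change above 1 left 0 sarcomere genes called lower, 0 called higher and 496 of 4775 genes called. The log2 ratio of the summed FPKM was -0.47 under median-of-ratios scaling, -0.42 under TPM scaling, -0.26 under quantile normalization, -0.36 as a mean of log2 values, and -0.45 to -0.44 without single libraries. Under quantile normalization the difference in percentage points was 0.19 for the Myh6 share (against -0.04) and 0.01 for the Myl7 share (against -0.03); without single libraries the Myh6 share ran from -0.12 to 0.07. Relative to the mean of the 10 genes (a check chosen after seeing the data), quantile normalization gave 0.11 for Myl7 (against -0.22) and -0.13 for Actc1 (against 0.05). The median log2 fold change of all genes stayed between -0.012 and 0.052 over the scalings. Same-numbered libraries did not deviate together (correlations of 0.03, 0.01 and 0.02). No pairing by number was seen, though 3 rats per group cannot exclude one. With the replicate block 8 sarcomere genes were called lower, 1 higher and 4539 genes in all. Depth limits Ankrd2, Myh8 and other genes with few fragments, not the 10 sarcomere genes.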

Other observations

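Markers of nerve, fat and mesothelial cells, which have no place in the sarcomere, were measured in the same libraries. Among intracardiac neuron markers, Slc18a3, the vesicular transporter of acetylcholine, was listed at 0 in all 3 BPVB libraries and at 1.28, 0.969 and 0.953 FPKM in the sham group. Of 5 adipocyte markers 3 rose and 1 fell, and Fabp4, also made by endothelial cells, was at 1297 ± 23 and 1299 ± 5.8 FPKM (SD, n = 3). The summed level of 4 mesothelial markers was 1.24 to 1.58 FPKM in the BPVB group and 2.76 to 4.16 in the sham group. Of the 3 that passed the filter on low values 2 fell, and Msln lost its call without BPVB replicate 2 (-0.66) or BPVB replicate 3 (-0.73).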
